A study of Mus musculus with 2 samples.

Results

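The Pax6 regulatory domain is described here as the stretch of mouse chromosome 2 from the last part of 0610012H03Rik through Rcn1, Pax6, Elp4 and Immp1l to Dnajc24 (chr2:105200000-105849999, mm9). Its members are all fixed 1 kb windows in that interval that held at least 3 array probes, which gave 544 windows of 14947 on the array. Of the 650 possible windows, 78 held no probe and 28 held 1 or 2 probes and were left out. The domain held 6405 of 170542 probes in all, including those of the windows left out. The windows used had a median of 12 probes and a range of 3 to 17. The DNA came from RAG, a renal adenocarcinoma line of the mouse that the study calls Pax6-OFF, and was hybridised for Rad21 chromatin immunoprecipitation (ChIP-chip). The single group held 2 arrays, numbered as biological replicates 1 and 2, with 1 flask of cells behind each. There was no second cell line, no other antibody and no dye swap, so every value below compares the channels of an array or positions along it. The arrays measure DNA, and the identity of the cells could not be checked against expressed markers.

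Rad21 is the subunit that closes the cohesin ring, the complex that holds chromatin fibers together and extrudes loops. CTCF is a zinc-finger protein that binds an asymmetric DNA motif and halts cohesin, so that cohesin accumulates at CTCF sites and the direction of the motif is a property of the loop anchor. Pax6 encodes a paired-domain and homeodomain transcription factor of the eye, brain and pancreas. Its enhancers lie within the gene, in an upstream regulatory region (URR) and in a downstream regulatory region (DRR) inside the introns of its neighbor Elp4, which encodes a subunit of the Elongator complex. Rcn1 encodes a calcium-binding protein of the endoplasmic reticulum. Immp1l encodes a peptidase of the inner mitochondrial membrane, and Dnajc24 a J-domain protein of the diphthamide pathway. Pax6os1 is a noncoding transcript that runs away from Pax6 on the opposite strand.

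Values are log2 ratios of the green over the red channel, log2(Cy3/Cy5), centred on each array's median, so that 1 unit is a doubling. The labels put input DNA in Cy3 and ChIP DNA in Cy5 on both arrays, so a positive value is the opposite of an enrichment by the labels. The authors' deposited log2 values nevertheless ran with Cy3 over Cy5, with a Pearson r of 0.964 in replicate 1 and 0.962 in replicate 2 against a running median of that ratio across 155420 probes. The sources used here do not settle which channel held the ChIP DNA, and sites are therefore named by dye.

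In the domain the ratio was near or slightly below 0 over long stretches, with 8 narrow sites where Cy3 was higher by 1.48-fold to 3.12-fold. Of these, 5 lay upstream of the Pax6 start and 3 downstream of it, and none lay in Pax6. A site here is a run of at least 3 probe positions where the running median of both arrays (400 bp to either side) passed 0.64, the 0.99 quantile of a null mirrored from the negative side. The summit is the position with the highest running median. The 8 sites were 240 to 2163 bp long and lay 41.3 to 183.8 kb apart. The widest gap, 183.8 kb, ran from site 5 in the URR to site 6 in the DRR and contained all of Pax6. Sites 1, 2, 3 and 8 lay outside all 13 Capture-C viewpoints and 5 FISH probe spans that the study placed on the locus, of which 12 viewpoints fall in the domain.

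**Figure D1:**
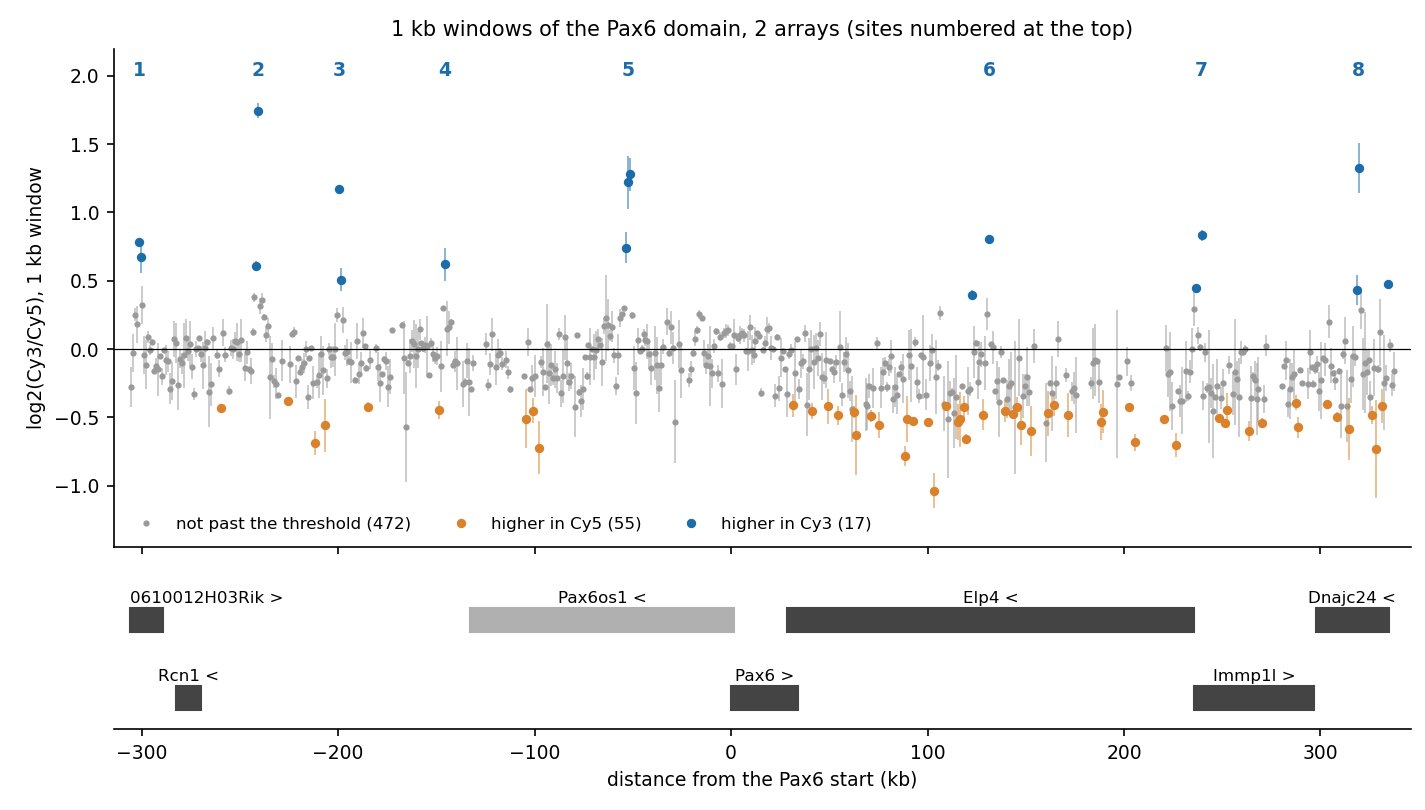
Points give the mean log2(Cy3/Cy5) of each 1 kb window on 2 arrays, lines join the 2 replicates, and the x axis is the distance from the Pax6 start in kb. Numbers mark the 8 sites, bars below are genes with their direction (grey for noncoding), and the windows higher in Cy5 are most frequent over Elp4.

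The sequences at the sites are shown because the direction of the CTCF motif can be read from them. Within 500 bp of the summit, 7 of the 8 sites held a match to the 12 positions of the CTCF core motif with at most 1 mismatch on either strand. Each sequence below is 60 bases long, read 5′ to 3′ on the strand of the motif from the mm9 reference, with the core in capitals.
site 1, chr2:105207948-105208007, plus strand: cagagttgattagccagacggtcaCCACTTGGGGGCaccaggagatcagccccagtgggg
site 2, chr2:105268389-105268448, minus strand: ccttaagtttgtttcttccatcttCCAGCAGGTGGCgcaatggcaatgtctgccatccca
site 3, chr2:105309272-105309331, plus strand: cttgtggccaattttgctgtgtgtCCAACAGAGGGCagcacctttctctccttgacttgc
site 4, chr2:105363524-105363583, plus strand: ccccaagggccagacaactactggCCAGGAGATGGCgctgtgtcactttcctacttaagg
site 5, chr2:105456622-105456681, minus strand: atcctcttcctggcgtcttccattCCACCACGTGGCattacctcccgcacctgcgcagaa
site 6, chr2:105640195-105640254, minus strand: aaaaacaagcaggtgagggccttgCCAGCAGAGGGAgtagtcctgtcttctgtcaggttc
site 7, chr2:105748649-105748708, minus strand: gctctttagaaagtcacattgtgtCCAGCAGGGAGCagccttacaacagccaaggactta
The core stood 93 to 387 bp from the summit. Only site 2 had no mismatch, and the other 6 had 1. On the plus strand, the direction in which Pax6 is transcribed, the core was read at sites 1, 3 and 4. On the minus strand it was read at sites 2, 5, 6 and 7. Read along the chromosome, the cores of sites 1, 3 and 4 thus point toward those of sites 5, 6 and 7. Pax6 lies between sites 5 and 6, whose cores are both on the minus strand and so do not face each other. The core of site 1 also points toward that of site 2. The cores of sites 3 and 6 stood 261 and 387 bp from the summit, and within 250 bp only sites 1, 2, 4, 5 and 7 held one. At site 8 no core was found at this setting, and 1 match appeared with 2 mismatches allowed.

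A match of this kind is a description of letters and does not show binding. Over all 14947 windows, 7.73% held a core within 500 bp of their midpoint, and over the 544 domain windows 5.51% did. Of the 529 domain windows that overlap no site, 4.16% held one. Across all 209 regions higher in Cy3 on the array the share was 63.6%, against 87.5% of the 8 in the domain. With no mismatch allowed, 1 of the 8 sites held the core (12.5%, against 0.522% of all windows), and with 2 mismatches all 8 did (against 49.8%). With 1 mismatch but only 250 bp to either side, 5 of the 8 did (62.5%, against 3.81%).

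The first question was how far the 2 arrays gave the same picture of the domain. Pearson r between the replicates was 0.624 across its 544 windows, Spearman rho was 0.469, and r was 0.440 over the 529 windows outside the sites. These windows share arrays and neighbors, so no p-value is attached. Both replicates were above 0 in 97 windows and below 0 in 280, and they had opposite signs in 167. The median SD between replicates was 0.12. Window means ran from -1.04 to 1.74. In the domain the median spot was 32.5 and 42.2 times background in Cy3 and 15.4 and 18.0 times in Cy5 on replicates 1 and 2, and Cy5 held 47 and 31 saturated spots of 6405.

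**Figure D2:**
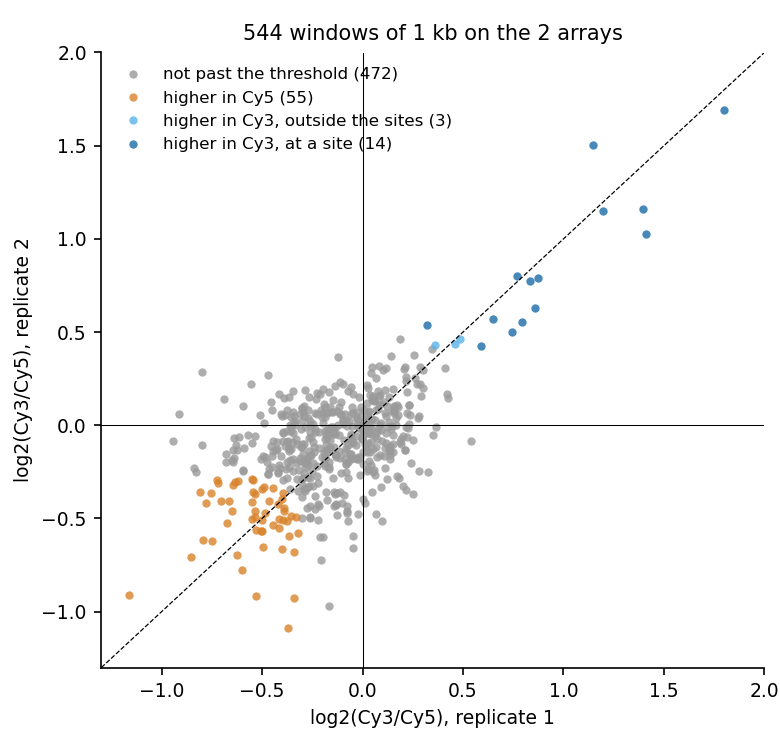
Each point is a 1 kb window of the domain with its log2(Cy3/Cy5) on replicate 1 (x axis) and replicate 2 (y axis), and the dashed line marks equal values. The 14 windows at the sites that passed the limma threshold lie above 0.3 on both arrays, apart from the cloud around 0.

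The mean of the 2 arrays was tested against 0 with limma in every window of the array, with Benjamini-Hochberg adjustment over all of them at 0.05. In the domain 17 windows were higher in Cy3, or 3.12%, against a background of 3.86% over the whole array. A further 55 were higher in Cy5, or 10.1%, against a background of 5.86%. The share of windows higher in Cy3 was thus close to the background of the array, while the share higher in Cy5 was above it at this setting. Under the alternatives the Cy3 share of the domain ran from 2.63% (probes well above background) to 4.75% (2 kb windows). With a correction for base composition, given below, the Cy5 count fell from 55 to 7 in the domain and from 876 to 124 on the whole array. At an unadjusted p under 0.05 (limma) the domain counts were 34 and 155 of 544. No share over the whole array is given at that cutoff, so these counts cannot be set against a background. Of the 17, 14 lay in the sites and 3 outside them, and 5 were above 1 log2 unit. Windows that overlap a site made up 2.76% of the domain (15 windows), against 3.22% of the array. The summit window of each of the 8 sites passed the threshold, from the same arrays that placed the sites. The split of calls depended on the scaling. Cy3 made up 23.6% of the domain's calls here, 63.2% with normexp background correction, 61.5% after loess, 70.8% after a correction for base composition, 63.6% with probes well above background only, 51.9% in the deposited values and 12.2% with centring on the mode.

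Site 2 was the highest of the domain and stood 27th of 209 such regions by its running median. It lies between genes at chr2:105267849-105268988, 28.8 kb from the nearest Rcn1 start and 241 kb upstream of the Pax6 start. Its 19 probes had a mean of 1.7 on replicate 1 and 1.58 on replicate 2, or 1.64 ± 0.08 (SD, n = 2). All 19 were positive on both arrays, as was every probe of every other site. The sites were selected on these same values, so neither probe signs nor the p of a summit window is independent support for a site. The 2 arrays were nearly alike here, and each called the site alone. The summit window gave an adjusted p of 8.7e-05 (limma). Cy3 was 1.61 and 1.46 log2 units above the median of its channel, while Cy5 was at -0.08 and -0.10, so Cy3 was bright and Cy5 near its channel's median. The highest probe reached 2.86 and 2.84.

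Site 3 lies 41.3 kb further toward Pax6, at chr2:105308994-105310048, also between genes and 70.1 kb from the Rcn1 start. Its 11 probes had means of 1.13 and 1.1, or 1.12 ± 0.02 (SD, n = 2), the smallest spread of the 8 sites. It was called on each array alone, and its summit window had an adjusted p of 0.000322 (limma). Cy3 was again high (1.07 and 1.01 above its channel's median) and Cy5 near its median (-0.06 and -0.07). Of the 3 windows it touches, the first was at 0.25 with an adjusted p of 0.153 (limma) and did not pass.

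Site 1 lies at the edge of the interval, at chr2:105207271-105208067 in the last of the 3 introns of 0610012H03Rik, a gene of the plus strand. Its 10 probes had means of 0.77 and 0.83, or 0.80 ± 0.04 (SD, n = 2), and its summit window an adjusted p of 0.00266 (limma). Neither array alone called it, because only 2 of its 10 positions passed the threshold of each array (0.93 for replicate 1 and 0.67 for replicate 2), fewer than the 3 a region needs. Cy5 was above its channel's median as well (0.56 and 0.65), below Cy3 at 1.33 and 1.46.

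Site 8 lies at the opposite end, at chr2:105827874-105828901 in intron 2 of 4 of Dnajc24, 319 kb downstream of the Pax6 start. Its 13 probes had means of 1.08 and 1.54, or 1.31 ± 0.32 (SD, n = 2), so replicate 2 was higher. Both arrays called it alone and its summit window had an adjusted p of 0.000404 (limma). Both channels were bright, with Cy3 at 2.36 and 2.45 and Cy5 at 1.28 and 0.93 above the channel medians. It is the site with no core motif at 1 mismatch.

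The other 4 sites overlap viewpoints that the study named for CTCF. Site 5, at CTCF6 in the URR, was the widest and the highest of these 4, at chr2:105455367-105457529 in intron 1 of 3 of Pax6os1 and 52.3 kb upstream of the Pax6 start. Its 28 probes had means of 1.38 and 1.07, or 1.22 ± 0.22 (SD, n = 2), each array called it alone, and its summit window had an adjusted p of 0.000699 (limma). All 3 windows it spans passed the threshold, at 0.74, 1.22 and 1.28. Site 6, at CTCF5 in the DRR (chr2:105640103-105640762), lies in intron 7 of 9 of Elp4 and had means of 0.95 and 0.88, or 0.91 ± 0.05 (SD, n = 2). Site 7, at CTCF4 (chr2:105748317-105748856), had its summit on the last base of exon 2 of Immp1l, which is annotated as untranslated (chr2:105748481-105748586). Its means were 1.04 and 0.80, or 0.92 ± 0.18 (SD, n = 2), and its motif lay beyond that exon in the intron. Sites 6 and 7 were called alone only on replicate 2, with adjusted p of 0.00239 and 0.00212 for their summit windows (limma). The threshold was 0.93 on replicate 1 and 0.67 on replicate 2. Their running medians at the summit were 0.77 and 0.81 on replicate 1 and 0.78 and 0.98 on replicate 2, while their probe means were higher on replicate 1.

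Site 4, at CTCF7 (chr2:105363369-105363608), was the weakest, with only 4 probes and 240 bp. Replicate 1 gave 0.83 and replicate 2 gave 0.29, or 0.56 ± 0.38 (SD, n = 2), and neither array called it alone. Its summit window held 14 probes at 0.74 and 0.50, with an adjusted p of 0.0127 (limma). It ranked 199th of 209, and 6 of 17 alternative settings for region calling missed it. Sites 2, 3, 5 and 8 were found under all 17, and sites 1, 6 and 7 under 14.

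**Figure D3:**
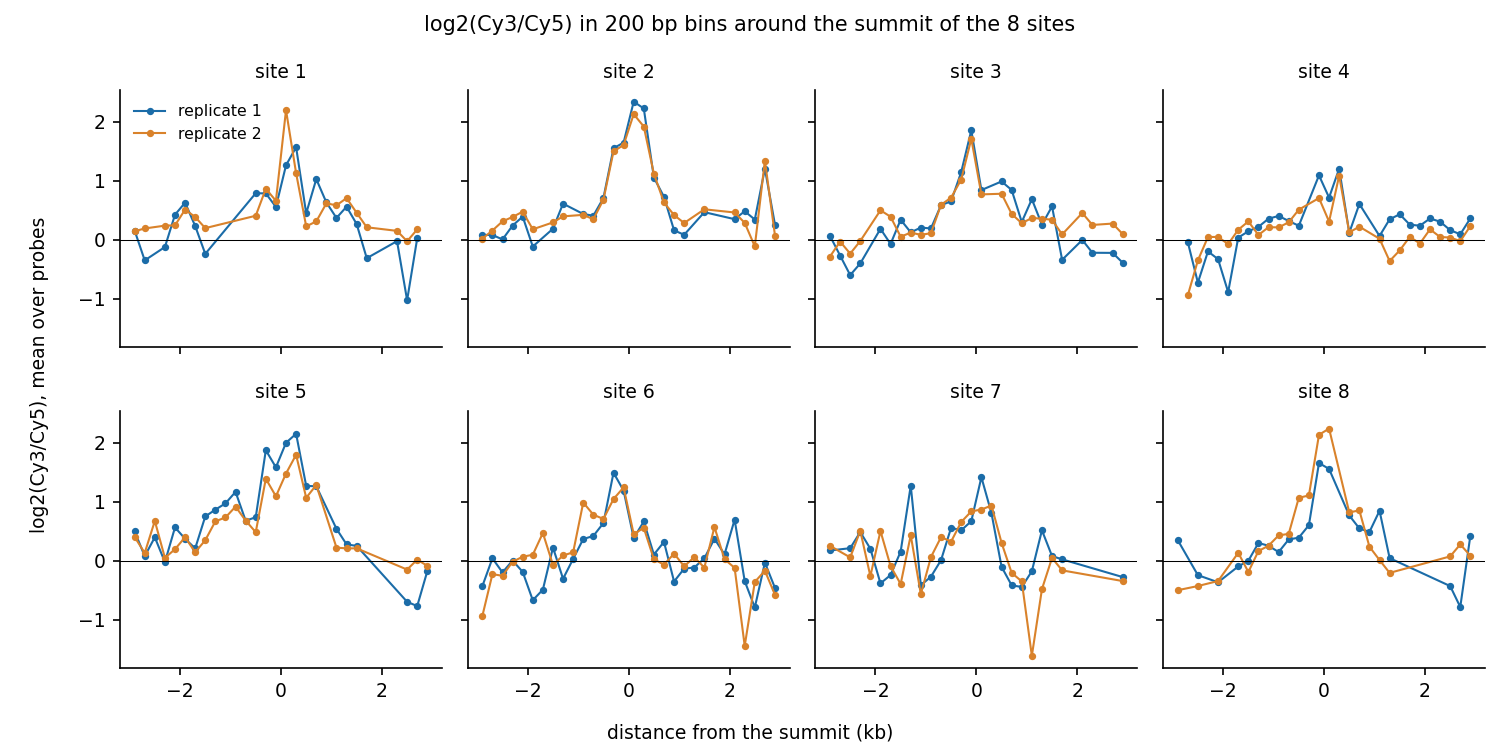
Lines give the mean log2(Cy3/Cy5) of probes in bins of 200 bp (y axis) against the distance from the summit in kb (x axis) for the 8 sites, with the replicates in separate colors. Within 500 bp of the summit the highest bin lies between 0.94 (site 7, replicate 2) and 2.34 (site 2, replicate 1), and single bins rest on as little as 1 probe.

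The sites called on replicate 1 alone numbered 4, and their means on replicate 2 were 1.07 to 1.58. Replicate 2 by itself called 6, including those 4, and their means on replicate 1 were 0.95 to 1.7. Both arrays together selected the sites and drew their boundaries, so these ranges are not an independent check of 1 array by the other.

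Outside the sites 3 windows were higher in Cy3 by limma, all under 0.5 log2 units. The window at chr2:105843000-105843999 spans the starts of Dnajc24 and the noncoding BC048594 and had 0.48 and 0.46, or 0.47 ± 0.01 (SD, n = 2), with an adjusted p of 0.0245 (limma). The window at chr2:105745000-105745999, in the first part of Immp1l beside the shared Elp4 and Immp1l start, had 0.46 and 0.43 with an adjusted p of 0.0293 (limma). The third, at chr2:105631000-105631999 in an Elp4 intron within the DRR, had 0.36 and 0.43 with an adjusted p of 0.0444 (limma). None of the 3 held the core motif. Just outside the threshold stood the window at chr2:105266000-105266999 near site 2, at 0.35 and 0.41 with an adjusted p of 0.051 (limma).

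The Pax6 gene itself showed no site. At its start the window gave 0.02 on replicate 1 and 0.03 on replicate 2, with an adjusted p of 0.919 (limma). Its 29 annotated transcript starts fall in 14 windows, with means from -0.05 to 0.16 and a lowest adjusted p of 0.363 (limma). Over the 34 windows of the gene the median was 0.00, the range was -0.41 to 0.16, none was higher in Cy3 and 1 was higher in Cy5, the window at chr2:105540000-105540999 that Pax6 shares with Elp4 (-0.33 and -0.49). The viewpoints 7CE12_CTCF and CTCFp11, which lie in Pax6 and are named for CTCF, had window means of 0.14 to 0.15 and -0.15 to 0.08, and neither passed, with lowest adjusted p of 0.371 and 0.408 (limma). The e200_Enh viewpoint upstream had -0.11 to 0.11. These values bound the ratio at the probes of these windows and do not show that Rad21 was absent.

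Of the other gene starts, the Rcn1 start was at -0.10 and 0.03, with opposite signs on the arrays and an adjusted p of 0.861 (limma). The shared start of Elp4 and Immp1l was at 0.42 and 0.17, or 0.29 ± 0.18 (SD, n = 2), with an adjusted p of 0.125 (limma). Of these gene starts only that of Dnajc24 passed the threshold, while the window at an internal Elp4 transcript start (chr2:105654000-105654999) was higher in Cy5, at -0.35 and -0.49 with an adjusted p of 0.0393 (limma). In the deposited values the mean at the Dnajc24 start was 0.42 with an adjusted p of 0.055 (limma), and in the other alternatives with a test it passed.

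**Figure D4:**
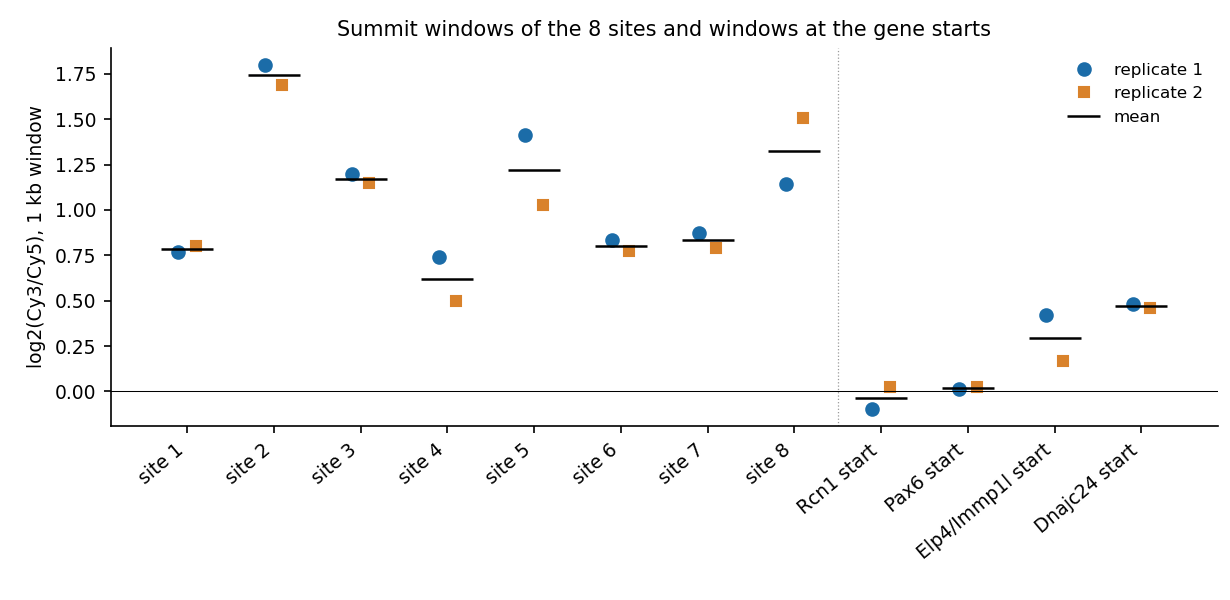
Points give log2(Cy3/Cy5) of the 1 kb window at the summit of each site (left of the dotted line) and at the start of each protein-coding gene (right), for replicates 1 and 2, with the mean as a bar. The Pax6 and Rcn1 starts lie at 0, and all summit windows lie above the Dnajc24 start on both arrays.

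On the Cy5 side 1 region passed the region threshold of -1.1, against 4 on the whole array. Windows overlapping such regions made up 0.0268% of the array. The Cy3 threshold of 0.64 lay nearer to the centre, so these counts cannot be set against those of the Cy3 sites. With the Cy5 cutoff moved to -0.64, the domain held 11 Cy5 regions beside its 8 Cy3 sites. The whole array then held 171, beside 209 on the Cy3 side. The domain's region past -1.1 lies at chr2:105797696-105797875 in intron 5 of 6 of Immp1l. It rests on 3 probes, with -1.43 on replicate 1 and -0.98 on replicate 2. Only replicate 1 called it alone. Both channels were dim there, Cy3 at -3.15 and -3.00 and Cy5 at -1.71 and -2.00 log2 units from the channel medians, and the region was lost under 9 of the alternatives that used both arrays.

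The 55 windows higher in Cy5 were shallow and scattered. Their median was -0.50, 1 was below -1, and they formed 48 separate runs of at most 2 neighboring windows. The lowest window was chr2:105612000-105612999 in an Elp4 intron at the border of the DRR, with -1.16 and -0.91, or -1.04 ± 0.18 (SD, n = 2), and an adjusted p of 0.000989 (limma). The next was chr2:105597000-105597999, also in Elp4, with -0.85 and -0.71 and an adjusted p of 0.00321 (limma). The other 6 of the 8 lowest had means from -0.73 to -0.66, and 1 of them, at chr2:105837000-105837999 in Dnajc24, rested on 4 probes at -0.37 and -1.09. Elp4 held 33 of the 55 among its 158 windows (20.9%), Immp1l 7 of 49 and Dnajc24 6 of 37. Rcn1 held none of 13, and between Rcn1 and Pax6 there were 9 of 232 (3.88%). The windows nearest the threshold were at -0.40 and -0.37 just inside (adjusted p = 0.0492) and -0.30 and -0.50 just outside (adjusted p = 0.0507, limma).

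Base composition moved with the ratio across the domain. The share of G and C bases in the probes of a window had a Pearson r of 0.528 with the window's mean over 544 windows (0.545 on replicate 1, 0.397 on replicate 2), and 0.622 over the windows outside the sites. This is a description, since the windows share arrays and neighbors. Of the 55 windows higher in Cy5, 43 lay among the 137 windows poorest in G and C (24.3% to 35.9%), where the median was -0.33. None lay among the 136 richest, where it was 0.04. Windows higher in Cy5 were also dim, with a median of -2.02 and -2.14 in Cy3 and -1.43 and -1.63 in Cy5 against the channel medians, and none held the core motif. Elp4 windows had a median of 35.8% G and C, against 47.7% in Pax6. When the trend with base composition was removed, 7 windows stayed higher in Cy5, all among the 55, and 17 were higher in Cy3, of which 16 were the same windows. The part of base composition or of dim signal in the Cy5 calls was not tested further.

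**Figure D5:**
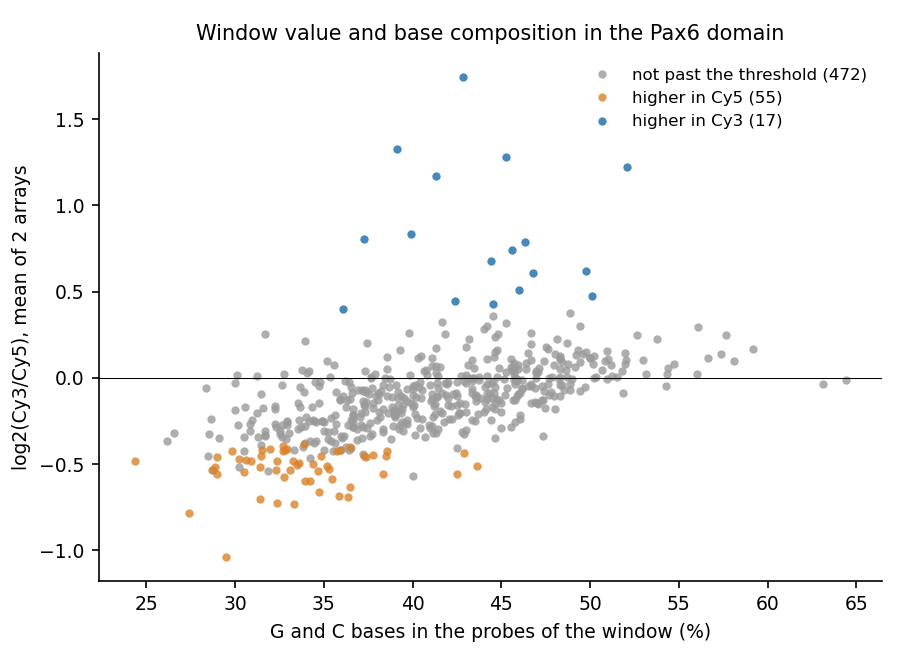
Each point is a 1 kb window of the domain, with the share of G and C bases in its probes (x axis, percent) and its mean log2(Cy3/Cy5) on 2 arrays (y axis). Windows higher in Cy5 gather at 24.3% to 43.6% G and C at the lower edge of the cloud, while windows higher in Cy3 stand above it at 36.1% to 52.1%.

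By annotation, 10 of 338 intronic windows, 5 of 126 intergenic, 1 of 53 exonic and 1 of 27 promoter windows were higher in Cy3, or 2.96%, 3.97%, 1.89% and 3.70%. Higher in Cy5 were 44, 6, 3 and 2 of them, or 13.0%, 4.76%, 5.66% and 7.41%. The median share of G and C bases in these classes was 38.0%, 44.5%, 39.9% and 48.7%. The URR span held 3 windows higher in Cy3 and none higher in Cy5 among its 39, with a median of 0.03. The DRR span held 2 and 9 among 42 windows with their midpoint in it, with a median of -0.28. Both regions thus held a Cy3 site over a different general level, and their windows had medians of 45.6% and 35.0% G and C.

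The domain stood between its flanks on chromosome 2 in the density of regions and in its median. It held 12.3 regions higher in Cy3 per Mb, against 19.4 in the 1.7 Mb tiled at lower coordinates, 4.24 in the 1.65 Mb at higher coordinates and 12 on the rest of the array. The median window was at -0.14 on replicate 1 and -0.09 on replicate 2 in the domain, -0.01 and 0.00 in the lower flank and -0.24 and -0.17 in the upper flank. These differences between stretches were not tested.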

How the data were processed

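Rad21 ChIP-chip was hybridised on 2 Agilent 4x180K arrays, 1 group of 2 replicates. Per the file headers, the deposited intensity values come from Feature Extraction 10.5.1.1 (background subtraction with spatial detrending and a linear dye factor), as do the log10 ratios, which were used only as a check. The quality marks in the deposited files gave 27 outlier spots that were left out. The log2 table that the authors deposited was made with Ringo (parameters not given in the sources used here). It was an alternative only, and its rows were matched to probes by order. ChIP and input DNA were amplified and reamplified, which can favor some sequences over others.

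Here log2(Cy3/Cy5) of the processed signals was centred on each array's median, and probes were averaged per 1 kb window. limma 3.58.1 (R 4.3.3; lmFit, eBayes, two-sided) tested windows with 1 residual degree of freedom and 7.0 prior ones. Ringo-type regions joined positions under 600 bp apart. By construction 1% of positions of the mirrored null pass. Scripts were tested on simulated data, where the share of false window calls varied between draws and lay above the nominal level, and region calling also returned regions where none was planted. Genes came from GENCODE M1 on mm9. Named were all regions, called windows outside them (at most 8 per direction), gene starts and windows beside the threshold. Members and lists were chosen with earlier results of these data known. The number of arrays limits precision, and replicates are 1 flask each. Alternatives are listed with their effects in the closing section. Python 3.11.15 was used.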

Additional observations from a re-analysis of the deposited data

How the results depend on the processing

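No paired analysis was possible because the arrays form a single group. A single array gives no test, so window counts have no value without a replicate. The 17 windows higher in Cy3 became 30 in 500 bp windows, or 3.17% of 945 windows against 3.12% of 544, and stayed within 1.5 times under the other alternatives, of 14 to 24. The 55 windows higher in Cy5 became 14 with normexp, 10 after loess, 108 with centring on the mode, 8 with probes well above background, 7 after the correction for base composition, 13 in the deposited values and 0 with a trended robust prior, where 122 had an unadjusted p under 0.05. On the whole array the 876 windows higher in Cy5 became 384, 201, 2017, 249, 124, 190 and 0 in the same order. For the 122 by unadjusted p no count over the whole array is given. The 8 regions higher in Cy3 became 15 with normexp and 4 at the strictest quantile, and 4 to 6 on a single array. They became 12 after loess, 10 after base composition and 10 at the 0.95 quantile. They became 7 with no background correction or at least 6 positions, and 6 with a running median within 800 bp. Over the whole array the 209 such regions became 338 with normexp, 156 at the strictest quantile and 166 to 211 on a single array. They became 305 after loess, 340 after base composition and 306 at the 0.95 quantile. With no background correction, at least 6 positions and a running median within 800 bp they became 203, 180 and 196. Regions with summits at chr2:105631429 and chr2:105745149, in 2 of the windows called outside the sites, were added with normexp, loess, base composition and the 0.95 quantile. The single region higher in Cy5 became 71 at the 0.95 quantile, 11 with the Cy3 threshold turned to the other side and 0 to 4 on a single array. It became 0 with normexp, no background correction, loess, probes well above background, base composition or deposited values. It also became 0 with a running median within 800 bp, the strictest quantile or at least 6 positions. Over the whole array the 4 regions higher in Cy5 became 1604 at the 0.95 quantile and 171 with the Cy3 threshold turned. The domain median of -0.12 became -0.0348 with normexp, -0.0536 after loess, -0.196 with centring on the mode, -0.0621 after base composition and -0.0612 in the deposited values, and -0.14 to -0.09 on a single array. The share of sites with the core motif was 87.5%, 12.5% with no mismatch, 100.0% with 2 and 62.5% within 250 bp of the summit. The Pax6 start changed sign from 0.02 to -0.0371 with normexp, -0.0405 after loess, -0.0593 with centring on the mode, -0.0888 after base composition and -0.00616 in the deposited values. The Rcn1 start went from -0.04 to 0.00269 with no background correction and was -0.0963 to 0.0257 on a single array. No site's mean changed sign under the alternatives run for it. The cause of these shifts was not tested. With 1 residual degree of freedom, the number of windows called rests on the estimated prior, and adjusted p near the threshold should be read with that in mind.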
